A study of Capra hircus with 6 samples.

Results

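The nuclear genes of oxidative phosphorylation were examined in goat skin, as far as they carried a subunit symbol in the deposited table. Members were all genes whose symbol starts with NDUFA, NDUFB, NDUFC, NDUFS, NDUFV, UQCR, COX4 to COX8 or ATP5, or is SDHA, SDHB, SDHC, SDHD, CYC1 or CYCS, leaving out the NDUFAF assembly factors. The rule found 60 of the 26951 genes in the table. They are 37 subunits of complex I, the 4 subunits of complex II, 15 subunits of complex V, the pair NDUFA4 and NDUFA4L2, and the pair ATP5S and ATP5SL. The UQCR, COX4 to COX8, CYC1 and CYCS parts of the rule found 0 genes, because the table lists the goat genes of complexes III and IV and of cytochrome c under placeholder symbols. These were located by their description after the table had been seen (10 genes of complex III, 19 of complex IV and 2 of cytochrome c) and are described apart from the members.

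Skin containing hair follicles was sampled from black-coated regions (replicates 1 to 3) and white-coated regions (replicates 4 to 6) of goats crossed from the Boer and Macheng Black breeds, which have a black head and a white body. RNA was depleted of ribosomal RNA and sequenced, giving 1 library per sample, and both groups share breed, tissue and protocol. The labels give no age, no sex and no animal, so coat colour cannot be told apart from the place on the body, and p-values measure only how far these 6 samples spread, part of which may be technical. The comparison asks which genes differ between skin under black and under white hair.

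Oxidative phosphorylation makes most of the ATP of a resting mammalian cell in the inner mitochondrial membrane. Complexes I and II pass electrons from NADH and succinate to ubiquinone, complexes III and IV pass them on through cytochrome c to oxygen, and complex V, the ATP synthase, uses the proton gradient built up by complexes I, III and IV. Most subunits are encoded in the nucleus and a few in mitochondrial DNA. In mouse skin, respiration in the epidermis and its appendages is known to be needed for normal growth of hair follicles.

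Reads in named genes ranged from 12648817 to 22085079 per library. Black replicate 1 stood apart from the other 5 libraries: the 9 tested genes of hair shaft and inner root sheath summed to 1189 CPM (reads scaled to library size with TMM factors) there, to 18914 and 25484 CPM in black replicates 2 and 3, and to between 18719 and 21189 CPM in the white libraries. Its 5 melanocyte genes summed to 36.2 CPM, against 836 and 989 CPM in the other black libraries and at most 6.14 CPM in white skin, where 2 of the 5 had 0 reads in each library. The Y-linked gene LOC108634721 had 1, 688 and 0 reads in black replicates 1 to 3 and 767 to 934 in the white libraries, so by this gene the libraries were not matched by sex.

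With 3 libraries per group, no member could be called different between black and white skin. All 60 members passed the filter on low counts, and 0 of them reached an adjusted p of 0.05 in edgeR's quasi-likelihood test, where 0.0% of the 15778 genes tested did so. The same test called 0 of the 5 melanocyte genes, at a median log2 fold change of 11.2. These genes were low in black replicate 1, and without that library the test called 5 of 5 of them and 0 members. With 0 of all 15778 genes called in the 6 libraries, a count of 0 among the members says little about them. At an unadjusted p under 0.05 the count of members was again 0, against 1.65% of all tested genes higher and 1.75% lower in black skin. DESeq2 called 78 genes (0.494%) and limma-voom 0, with 0 members in either. At an unadjusted p under 0.05 each of them listed 1 member, ATP5S, against 4.55% of all genes in DESeq2 and 3.3% in limma-voom. The members divided into 31 with a higher and 29 with a lower level in black skin, and their median log2 fold change (black over white) was 0.01, beside 0.02 over all tested genes, of which 53.0% were higher.

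How small the differences could be is shown by the intervals. Log2 fold changes of the 60 members ran from -0.42 for ATP5S to 0.38 for ATP5G1, and their 95% intervals reached from -1.06 to 0.89. For 59 of the 60 the whole interval lay within a log2 fold change of 1 in either direction, the exception being NDUFB1, the member with the fewest reads (55 in black replicate 1, 677 in all). For 9 members, among them SDHB, SDHC, NDUFA8 and ATP5H, it lay within 0.5. A 2-fold difference in either direction was thus outside the interval of every member other than NDUFB1, and smaller differences lay inside many of the intervals.

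**Figure D1:**
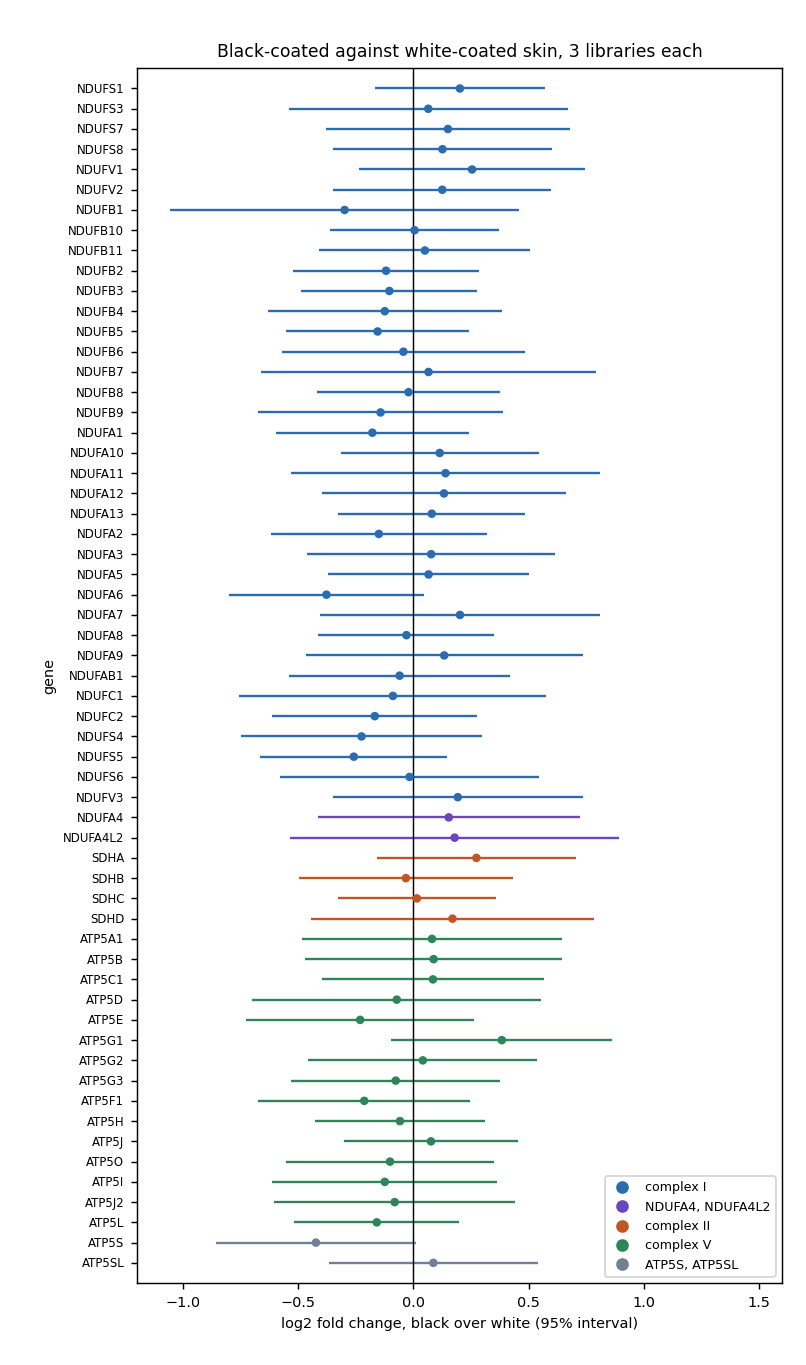
Log2 fold change (x axis, black over white, edgeR) of 59 of the 60 members (y axis) with its 95% interval, coloured by complex, from 3 black and 3 white libraries. Every interval drawn crosses 0, and the values run from -0.42 for ATP5S to 0.38 for ATP5G1.

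In levels per transcript length (FPKM, which scales fragments to library size and to the length of the transcript, here summed over a gene's transcripts) the complexes differed in abundance. Over the 6 libraries the members had a median mean level of 61.8 FPKM. The 15 subunits of complex V had a median of 157 FPKM, the 37 of complex I 50.2 FPKM and the 4 of complex II 46.3 FPKM. At the top stood ATP5E, the small epsilon subunit of the F1 head, at 376 FPKM, ATP5G2, which encodes the proton-carrying c subunit, at 347 FPKM, and ATP5J2, the f subunit of the membrane part, at 339.6 FPKM. At the bottom stood ATP5S at 8.97 FPKM and ATP5SL at 10.4 FPKM, which are known as coupling and assembly factors rather than as structural subunits of the enzyme. Among complex I subunits NDUFS5, an accessory subunit of the membrane arm, was highest at 178 FPKM and the 75-kDa iron-sulfur subunit NDUFS1 lowest at 11.2 FPKM. Such ranks depend on the transcript length by which FPKM divides. By reads NDUFS1 had 6851 in all, while NDUFB1, at 34.5 FPKM, had 677. Within complexes I and V the range was wider than the differences between the medians of the complexes.

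**Figure D2:**
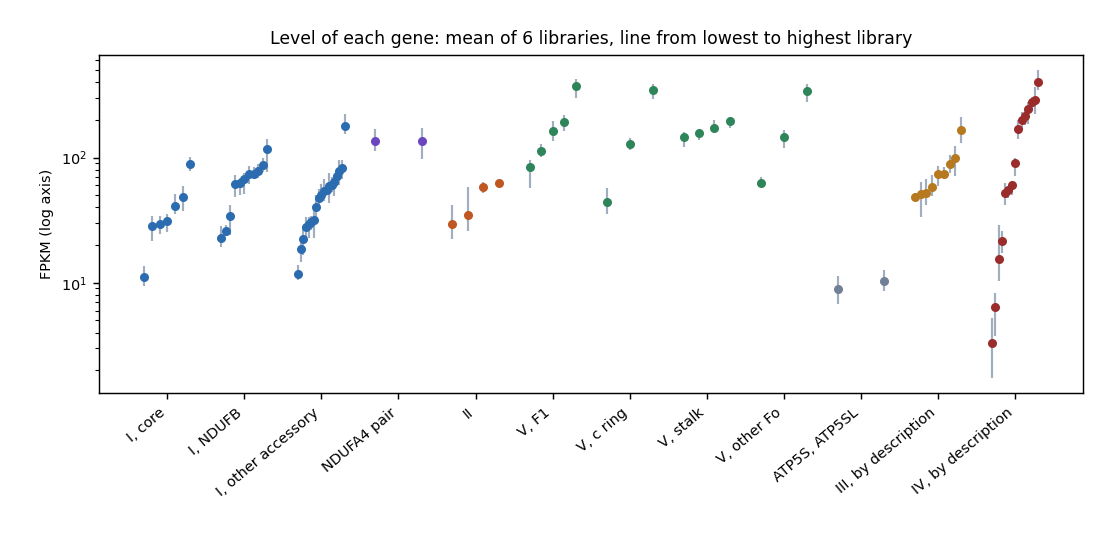
Level of each gene in FPKM (log y axis) by complex and role (x axis): the point is the mean of 6 libraries and the line runs from the lowest to the highest library. Members of complex V reach 376 FPKM (ATP5E), while ATP5S and ATP5SL lie near 10 FPKM; the groups of complexes III and IV were found by description and are no members.

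The 7 core subunits of complex I, which bind the flavin and the iron-sulfur clusters and are conserved from bacteria, all had a higher mean in black skin (median log2 fold change 0.15), as 7 of 7 did without black replicate 1 (0.29) and 5 of 7 without black replicate 2 (0.03). NDUFV1, which oxidises NADH, measured 61.7, 99.2 and 92.3 CPM in black replicates 1 to 3 and 71.9, 69.2 and 71.1 CPM in white replicates 4 to 6. Black replicates 2 and 3 lay above every white library and black replicate 1 below every one, so the groups overlapped. Its log2 fold change was 0.25 with an SE of 0.21 (95% interval -0.24 to 0.75, adjusted p = 1), the largest positive value in the complex.

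The 11 NDUFB subunits, which sit in the distal part of the membrane arm, had 3 higher and 8 lower means in black skin, at a median of -0.10. This direction turned without black replicate 1, with 7 of 11 higher at a median of 0.06, while without black replicate 2 it was 0 of 11 at -0.20. The difference from the core subunits was not tested. NDUFB7 was the most variable of them: 29.6, 70.8 and 56.7 CPM in the black libraries against 52.0, 47.1 and 51.1 CPM in the white ones. Its lowest and its highest library were both from black skin, and its log2 fold change of 0.07 (SE 0.31) was small beside that spread. The other 19 accessory subunits had 9 higher and 10 lower means, with a median of -0.02.

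Among these accessory subunits NDUFA6, which holds the acyl carrier protein NDUFAB1 on the matrix arm, had the lowest fold change of complex I. It measured 20.9, 22.2 and 24.2 CPM in black and 33.2, 26.7 and 27.6 CPM in white skin. All 3 black libraries lay below all 3 white ones, and the log2 fold change was -0.38 with an SE of 0.18 (95% interval -0.80 to 0.04, adjusted p = 1). NDUFS5 measured 71.2, 90.4 and 72 CPM in black and 103, 88.9 and 87.2 CPM in white skin, with a log2 fold change of -0.26 (SE 0.17), and its groups overlapped through black replicate 2.

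Groups that did not overlap were few. NDUFA6, ATP5S and ATP5L were below every white library in all 3 black libraries, 3 of 60 members against 4.99% of all tested genes, and 0 members were above every white library in all 3, against 3.81%. These shares are near the background.

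Complex II, which is also the succinate dehydrogenase of the citric acid cycle, did not vary as one unit. SDHA, the flavoprotein that oxidises succinate, measured 113, 102 and 84.0 CPM in black and 93.9, 78.3 and 75.0 CPM in white skin, a log2 fold change of 0.27 (SE 0.18). SDHB, the iron-sulfur subunit, measured 65.7, 101 and 78.2 CPM against 88.2, 77.7 and 84.8 CPM, a log2 fold change of -0.03 (SE 0.20). For both, the black and white libraries overlapped.

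The membrane anchors of complex II differed from each other in the same way. SDHC was the steadiest, at 84.1, 95.4 and 91.0 CPM in black and 86.1, 88.5 and 93.0 CPM in white skin (log2 fold change 0.02, 95% interval -0.33 to 0.36). SDHD measured 67.0, 38.4 and 36.5 CPM in black and 43.5, 39.7 and 42.7 CPM in white skin. Black replicate 1 was its highest library by far, while black replicates 2 and 3 lay below all 3 white libraries. The log2 fold change of SDHD, 0.17 (SE 0.26), became -0.17 (SE 0.15) once black replicate 1 was left out.

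In the F1 head of the ATP synthase, the alpha subunit ATP5A1 measured 400.1, 653 and 562 CPM in black and 488, 521 and 518 CPM in white skin. The catalytic beta subunit ATP5B measured 268, 430.2 and 423 CPM in black and 359, 341 and 354 CPM in white skin. Both had their lowest value in black replicate 1 and lay above every white library in black replicates 2 and 3, and their log2 fold changes of 0.08 (SE 0.24) and 0.09 (SE 0.24) were within the spread. ATP5E, the lowest of complex V by fold change, measured 60.1, 97.8 and 83.7 CPM against 95.8, 87.5 and 100.3 CPM (log2 fold change -0.23, SE 0.21). The means of all 5 F1 subunits divided 3 higher to 2 lower.

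The peripheral stalk, which holds the head still against the turning rotor, had 1 of 4 subunits with a higher mean, and the other Fo subunits ATP5I, ATP5J2 and ATP5L had 0 of 3. Without black replicate 1 these counts were 2 of 4 and 2 of 3. ATP5L, the g subunit, which takes part in joining ATP synthases into dimers, measured 90.0, 107 and 93.8 CPM in black and 109.8, 108 and 107 CPM in white skin. Black replicate 2, at 106.8 CPM, was only just below the lowest white library at 107.1 CPM, and the log2 fold change was -0.16 (SE 0.15). A second gene described as ATP synthase subunit g, LOC108638252, was present in the table, so the reads of ATP5L are uncertain to the extent that the copies are alike. ATP5S, also called factor B in human work, had the smallest p of all members, with 17, 15.5 and 14.4 CPM in black and 22.5, 21.1 and 19.3 CPM in white skin. Its log2 fold change was -0.42 with an SE of 0.18 (95% interval -0.86 to 0.01, unadjusted p = 0.0554, adjusted p = 1). Its partner in the symbol rule, ATP5SL, had a log2 fold change of 0.09.

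What the members shared more than a group difference was an order of libraries. The median over the 60 members of log2 CPM minus the gene's own mean was -0.31 in black replicate 1, 0.21 in black replicate 2, 0.07 in black replicate 3 and between -0.03 and 0.07 in the white libraries. Black replicate 1 was the lowest of the 6 libraries for 42 members, where it was lowest for 30.3% of all tested genes (35.3% of those with a mean of at least 10 CPM). Black replicate 2 was highest for 36 members, against 18.5% of all tested genes, and it lay above black replicate 3 in 52 members, against 47.6% of all tested genes. Summed over the members, the black libraries held 3794, 5426 and 4688 CPM and the white ones 4700.1, 4457 and 4531 CPM. The black samples thus lay on both sides of the white ones. The median SD of log2 CPM of a member was 0.302 among the black libraries and 0.0968 among the white ones. Over all tested genes it was 0.423 and 0.217, and over those with a mean of at least 10 CPM 0.348 and 0.173. The wider spread among the black libraries was thus not limited to the members, though in proportion the gap between the groups was wider in them. That difference was not tested. Between black replicates 2 and 3 alone the members' median SD was 0.115.

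Both the counts and the medians depend on how libraries are scaled. With library totals the members' median was -0.15 in black replicate 1 and 0.01 in black replicate 2. Relative to the median of all tested genes, which any library scaling moves alike, the members lay at -0.33 and 0.21 in CPM and at -0.26 and 0.15 by FPKM. The number of members lowest in black replicate 1 was 46 with DESeq2's size factors, 34 with the upper quartile, 29 with library totals and 27 by FPKM, and the number highest in black replicate 2 was 38, 30, 7 and 9. Library totals, FPKM and the upper quartile put the median level of all tested genes in black replicate 1 at 0.18, 0.11 and 0.11. With TMM it was 0.03. Library totals and FPKM put that in black replicate 2 at -0.19 and -0.12, where it was 0.001 with TMM. Those counts are therefore read against a shifted baseline. With library totals 21.4% of all tested genes were lowest in black replicate 1 and 6.22% highest in black replicate 2. These shares were 31.0% and 19.7% with DESeq2's size factors, 25.5% and 14.5% with the upper quartile, and 22.6% and 7.85% by FPKM.

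**Figure D3:**
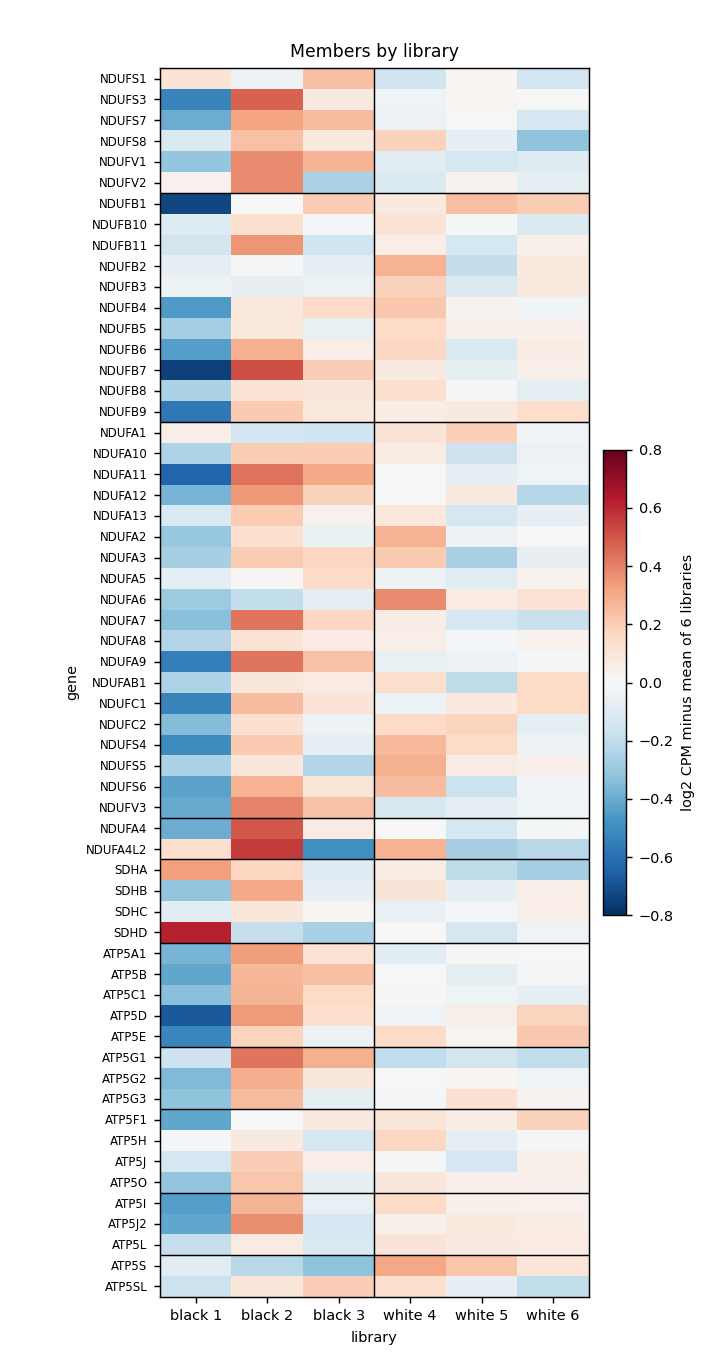
Log2 CPM of a member minus its mean over the 6 libraries (colour) for 59 of the 60 members, by library (x axis) and gene (y axis), with horizontal lines between the roles listed in the text (core, NDUFB and other accessory subunits of complex I, NDUFA4 pair, complex II, F1, c ring, stalk and other Fo of complex V, ATP5S pair). Over all 60 members black replicate 1 is lowest for 42 and black replicate 2 highest for 36, whereas SDHA and SDHD are highest in black replicate 1.

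Complex II followed that order in part. SDHB and SDHC were lowest in black replicate 1 and highest in black replicate 2, like most members, whereas SDHA and SDHD were highest in black replicate 1. The median level in black replicate 1 was 0.12 over these 4 genes, -0.29 in complex I and -0.36 in complex V. Of the 60 members only SDHA, SDHD, NDUFS1 and NDUFV2 were above every white library in black replicate 1, and SDHA and SDHD were the 2 members with their highest value there. Whether complex II differs from the others in this respect was not tested, as it rests on 1 library.

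Other genes moved with the same libraries. Of 15 cell cycle genes 14 were lowest in black replicate 1 and 12 highest in black replicate 2, summing to 351, 1014 and 698 CPM in the black and to between 519 and 763 CPM in the white libraries. In black replicate 1 the 9 tested macrophage genes summed to 1289 CPM (171 to 547 in the other libraries), the 6 tested mast cell genes to 336 CPM (40.1 to 99.7) and the 8 smooth muscle genes to 3619 CPM (1339 to 2448), while the 9 tested epidermal genes summed to 2486 CPM (5289 to 11700.0). The 7 fibroblast genes summed to 39123, 143803 and 23686 CPM in the black and to between 61055 and 139367 CPM in the white libraries. Gene by gene, all 7 were lowest in black replicate 3. Of these genes 3 were highest in black replicate 1, 2 in black replicate 2 and 2 in white replicate 6. Their median level in black replicate 1 was 0.006, so the low sum there does not hold for the list as a whole. Skeletal muscle, a tissue rich in these complexes, was hardly present: its 7 tested genes summed to between 9.27 and 13.5 CPM in every library, and 1 of them, ACTA1, had 0 reads in black replicate 1. The part of these cell types in the members' levels was not tested, and in whole skin fewer cells of a type and less RNA per cell cannot be told apart.

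Leaving out black replicate 1 moved the members toward black skin. The median log2 fold change became 0.13 and 44 of the 60 members had a higher mean in black skin, where 49.7% of all genes did (55.2% of those with a mean of at least 10 CPM). Black replicates 2 and 3 both lay above every white library for 19 members, against 13.6% of all tested genes, and below every one for 5 (14.5%), which were ATP5L, ATP5S, NDUFA1, NDUFA6 and SDHD. With 16 genes called over all 16022 tested (0.0999%), 0 members were among them. At an unadjusted p under 0.05 in edgeR, 5 members were higher (4.77% of all genes), namely ATP5G1, NDUFV1, NDUFA9, NDUFA11 and NDUFV3, and 1 was lower (5.28%), namely ATP5S. These 6 were picked out after their values had been seen. Leaving out black replicate 2 instead turned the median to -0.11, with 13 members higher (51.1% of all genes), 6 genes called (0.0369% of all) and again 0 members. The direction of the members as a group therefore rested on which black library was kept. In the fit without black replicate 2, the black libraries had 1 and 0 reads of the Y-linked gene and the white ones 767 to 934. Sex by this gene and coat region cannot be told apart in that fit.

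**Figure D4:**
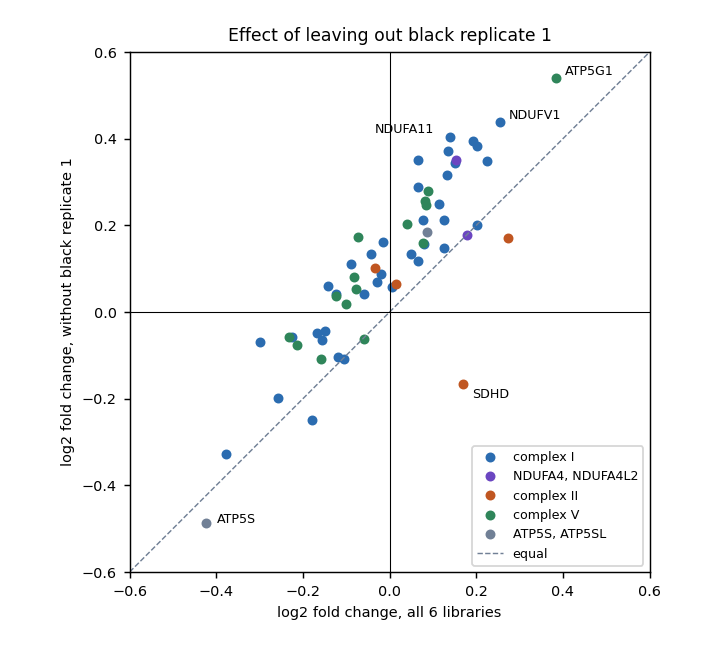
Log2 fold change (black over white) of each member in all 6 libraries (x axis) and without black replicate 1 (y axis), 1 point per gene coloured by complex, with the dashed line marking equal values. Most points lie above the line (median 0.01 against 0.13), SDHD moves from 0.17 to -0.17 and ATP5S stays lowest in both.

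Of the 5 members that were higher at this threshold, 3 are accessory subunits of complex I. NDUFA11, in the membrane arm, measured 19.4, 40.9 and 37.3 CPM in black and 30.1, 28.9 and 29.6 CPM in white skin. Its log2 fold change was 0.14 (SE 0.28) with and 0.40 (SE 0.15, adjusted p = 0.456) without black replicate 1. NDUFA9, near the ubiquinone site, measured 42.0, 82.6 and 72.1 CPM against 58.8, 59.5 and 61.1 CPM, with 0.13 and 0.37. For NDUFV3, a small subunit of the NADH-binding module, the libraries held 30.5, 53.3 and 47.4 CPM against 36.9, 38.5 and 39.5 CPM, with 0.19 and 0.40. All of them had white libraries within a narrow band and black libraries on both sides of it.

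Genes that encode alternative forms of a subunit were compared by their share of the summed level. The c ring of the ATP synthase is built from 1 protein that mammals encode in ATP5G1, ATP5G2 and ATP5G3. ATP5G1 held 9.27%, 9.23% and 10.1% of their summed FPKM in black and 7.48%, 7.30% and 7.34% in white skin. By read counts its share was 9.79% ± 0.310 in black and 7.66% ± 0.0351 in white skin (SD, n = 3 each), so that every black library, black replicate 1 included, lay above every white one on both scales. The exact two-sided permutation test of the share gave p = 0.1, which is the smallest that 3 against 3 libraries allow. Adjusted over the 10 shares computed, this p was 0.333. Those 10 hold the shares of the 3 c genes on both scales, so related shares are counted more than once and the adjusted value is lowered by this.

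In CPM, ATP5G1 measured 24.3, 36.8 and 33.2 in black and 23.8, 24.7 and 23.8 in white skin. Black replicate 1 lay below the highest white library here, and the log2 fold change of 0.38 (SE 0.20, 95% interval -0.10 to 0.86, unadjusted p = 0.1) did not pass the test. Without black replicate 1 it was 0.54 (SE 0.16, unadjusted p = 0.0106, adjusted p = 0.387). With all 6 libraries, limma-trend on FPKM with 1 or 0.1 added before log2 gave ATP5G1 an unadjusted p under 0.05. It did not when a mean FPKM of at least 1 was required, and ATP5G1 was not called in any of these fits. ATP5G2, the main form, held between 65.2% and 68.2% of the summed FPKM and ATP5G3 between 21.7% and 27.0%, with log2 fold changes of 0.04 (SE 0.21) and -0.08 (SE 0.19). The share of ATP5G3 overlapped between the groups by FPKM and did not by read counts, where it was 31.8% ± 1.48 in black and 34.2% ± 0.854 in white skin (SD, n = 3 each).

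**Figure D5:**
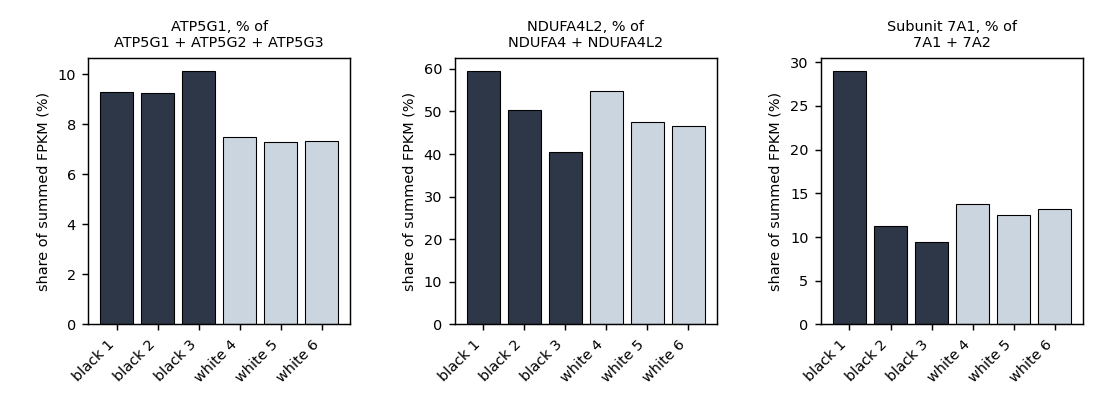
Share of summed FPKM (y axis, percent) in each library (x axis; dark bars black-coated, light bars white-coated skin) for ATP5G1 among the 3 c-subunit genes, for NDUFA4L2 against NDUFA4, and for cytochrome c oxidase subunit 7A1 against 7A2. The ATP5G1 share is 9.23% to 10.1% in black and 7.30% to 7.48% in white skin, whereas the other shares overlap between the groups.

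NDUFA4 was first assigned to complex I and is described in the table as a subunit of cytochrome c oxidase. Its paralogue NDUFA4L2 is known in human and mouse cells as a gene raised by low oxygen. The mean levels were nearly equal, at 135 FPKM for NDUFA4 and 137 FPKM for NDUFA4L2. NDUFA4L2 was among the most variable members, with 161, 217 and 104 CPM in black and 178, 122 and 126 CPM in white skin. Its share of the pair ranged from 40.4% to 59.5%, with the lowest and the highest value both in black skin. NDUFA4 itself measured 77.5, 144 and 107 CPM in black and 102, 92.5 and 101 CPM in white skin, following the library order of the other members. The log2 fold changes were 0.15 (SE 0.24) for NDUFA4 and 0.18 (SE 0.30) for NDUFA4L2.

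Complexes III and IV, located by description, were by their median likewise lowest in black replicate 1 and highest in black replicate 2. Of the 24 genes tested, 17 were lowest in black replicate 1 and 15 highest in black replicate 2. Over the 24 genes tested the median level was -0.37 in black replicate 1 and 0.28 in black replicate 2, and the median log2 fold change was -0.005, with 12 higher and 12 lower. In edgeR 0 of them reached an adjusted p of 0.05 and 0 an unadjusted p under 0.05. Cytochrome c1 (LOC102169976), which hands electrons to cytochrome c, measured 43.5, 100.9 and 84.3 CPM in black and 72, 67.9 and 70.7 CPM in white skin. As for NDUFV1, black replicate 1 was below and the other black libraries above all white ones. Isoform 1 of subunit 4 (LOC102188434) was the most abundant of all, at 403 FPKM, and its counterpart isoform 2 held 0.502% to 1.02% of their sum. Isoform 1 went against the library order, with 333, 300 and 241 CPM in black and 357, 263 and 276 CPM in white skin.

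Cytochrome c itself (LOC102173997, the 1 tested gene of that description), which carries electrons between the complexes, measured 29.0, 33.1 and 46.2 CPM in black and 29.3, 35.8 and 34.0 CPM in white skin, with overlapping groups. Subunit 7A1, the form known from heart and skeletal muscle, held 29.0% of the sum of 7A1 and 7A2 in black replicate 1 and 9.47% to 13.8% in the other libraries. Subunit 6B2 held 1.16% of the sum of 6B1 and 6B2 there and 0.129% to 0.268% elsewhere. Both shares were high in black replicate 1 alone and overlapped between the groups. Several of these genes have close copies in the table (3 genes described as subunit 7C and 2 as 7A2), so their levels are uncertain.

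Genes that build, feed or regulate the complexes were read from lists. In edgeR 0 of the genes on the 5 lists described here reached an unadjusted p under 0.05. Of 16 complex I assembly factors 7 had a higher mean in black skin (median log2 fold change -0.03), and of 31 assembly factors for complexes II to V 12 did (median -0.08). Without black replicate 1 these medians were 0.01 and 0.003. ECSIT, an assembly factor of complex I, had a log2 fold change of 0.39 (SE 0.23), ACAD9 of -0.20 (SE 0.23) and NDUFAF8 of -0.30 (SE 0.38). In the second list COX18 (LOC102180747), which inserts a subunit of complex IV into the membrane, stood at -0.28 (SE 0.16), the copper chaperone COX17 (LOC102170266) at -0.38 (SE 0.24) and PET100 at -0.52 (SE 0.36). None of these passed the test, with an adjusted p = 1 for each.

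Of 18 tested regulators of mitochondrial biogenesis 7 had a higher mean (median -0.06). PPARGC1A, the coactivator that drives these genes in muscle and brown fat, was low at 0.992, 1.65 and 2.16 CPM in black and 2.79, 1.94 and 2.97 CPM in white skin, with overlapping groups and a log2 fold change of -0.67 (SE 0.44). The nuclear receptor ESRRA, at -0.28 (SE 0.18), and the polymerase subunit POLG2, at -0.26 (SE 0.23), were likewise lower without passing the test.

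The citric acid cycle, which makes the NADH and succinate that complexes I and II use, had 13 of 16 genes with a higher mean and a median log2 fold change of 0.12, which was 0.21 without black replicate 1 and 0.06 without black replicate 2. Citrate synthase CS was at 0.22 (SE 0.19) and OGDH at 0.29 (SE 0.16). Without black replicate 1, 4 of the 16 were higher at an unadjusted p under 0.05 in edgeR (CS, IDH3A and MDH2 among them), where 4.77% of all genes were, and 0 at an adjusted p of 0.05. Of 10 tested carriers, pores and uncoupling proteins 6 were higher (median 0.11), which turned to 5 of them and a median of -0.02 without black replicate 2. Single values were VDAC1 at 0.24 (SE 0.16), the ADP/ATP carrier SLC25A4 at 0.23 (SE 0.19) and UCP2 at 0.83 (SE 0.69). UCP2 had 31.3 CPM in black replicate 1 and between 3.59 and 10.9 CPM in the other libraries, and its fold change turned to -0.25 without that library. The subunits encoded in mitochondrial DNA were not analysed here.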

How the data were processed

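Groups come from the labelled coat region of the 6 libraries and replicate numbers from the sample titles. Read counts and FPKM values, both per transcript, are those the authors deposited, per the file headers. Bowtie2 2.0.6, HISAT2 and Cufflinks appear in the submitters' processing notes without a role. The counting program, its use of strand and the build are not given in the sources; overlapping genes therefore cannot be told apart. From the 53266 rows, those with no gene name (189, at most 0.0675% of reads) and those of transfer RNA (1792) were dropped. Each gene was counted by its transcript with most reads, because most transcripts of a gene carry nearly the same count: 45 members had 1 row, and in the other 15 the lowest row held a median 99.7% and at the least 60.7% (NDUFV3) of the highest. FPKM is divided among transcripts and was summed, a choice made after seeing the table.

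The test was edgeR 4.0.16 (R 4.3.3) with filterByExpr, TMM and the robust quasi-likelihood fit, Benjamini-Hochberg adjusted over all 15778 genes kept, at an adjusted p of 0.05. An SE is the log2 fold change over the square root of F. The biological coefficient of variation was 37.3%. Levels by library use log2 CPM with a prior count of 1. The script was tested on simulated data. Alternatives were DESeq2 1.42.0, limma 3.58.1 (voom, or trend on FPKM with 1 or 0.1 added before log2), other scalings and filters, and leaving out each library. DESeq2 and limma-voom without black replicate 1, and the genes found by description, were added after seeing the data. The members and lists were chosen with earlier results of these data known. Named genes are, per complex, the highest level and the largest difference each way, the complex II and isoform genes, and up to 3 genes of each list by smallest p; others were chosen after their values were seen. Promoter motifs were not analysed here, and some single-gene values are not reported here.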

Additional observations from a re-analysis of the deposited data

How the results depend on the processing

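The count of members called was 0 in all 20 alternatives. The median log2 fold change of the members stayed between -0.01 and 0.03 under every alternative that kept the 6 libraries, and ranged from -0.11 (without black replicate 2) to 0.13 (without black replicate 1) when single libraries were left out. Over all genes the count of calls, 0 in edgeR, was 78 with DESeq2 and ranged from 0 to 16 when single libraries were left out (16 without black replicate 1, 6 without black replicate 2, 1 without white replicate 4). Chosen after seeing the data, DESeq2 without black replicate 1 called 262 genes and limma-voom 14.

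Directions turned in 10 of 531 values of named genes outside the edgeR fits that left out 1 library, all 10 in the added fits without black replicate 1, and in 14 of 228 values within those fits. With 1 library left out, log2 fold changes ranged from -0.22 to 0.10 for SDHB, from -0.035 to 0.064 for SDHC, from -0.17 to 0.33 for SDHD, from -0.25 to 0.052 for ATP5G3, from -0.11 to 0.20 for ATP5G2, from -0.10 to 0.35 for NDUFA4, from -0.10 to 0.42 for NDUFA4L2, from -0.063 to 0.40 for NDUFA11, from -0.071 to 0.37 for NDUFA9, from -0.53 to 0.025 for NDUFAF8 and from -0.25 to 1.305 for UCP2. Each of these ranges ended at the fit without black replicate 1 or 2, or at both. In DESeq2 and limma-voom without black replicate 1 the values were 0.11 and 0.093 for SDHB, -0.16 and -0.17 for SDHD, 0.060 and 0.047 for ATP5G3, 0.030 and 0.018 for NDUFAF8, and -0.23 and -0.56 for UCP2. The cause was not tested. No paired analysis was possible because the black and white samples share no replicate number.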

Other observations

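Glycolysis, the other route to ATP and the source of pyruvate for mitochondria, was examined beside the respiratory genes. Of 16 tested glycolytic genes 15 had a higher mean in black skin (median log2 fold change 0.41), beside 0.01 for the 60 respiratory genes and 0.02 for all tested genes. Without black replicate 2, the highest library for 12 of the 16, the glycolytic median was 0.19 with 13 higher, and the respiratory median -0.11. In edgeR 0 of them were called, and 5 were higher at an unadjusted p under 0.05 (1.65% of all tested genes): HK1, HK2, GPI, ENO1 and PKM. Hexokinase HK1, which starts the pathway, measured 179.5, 177 and 191 CPM in black and 122, 120.2 and 102 CPM in white skin, a log2 fold change of 0.67 (SE 0.17, unadjusted p = 0.00478, adjusted p = 1). Black replicate 1 lay with the other black libraries for this gene, unlike for most respiratory genes. Pyruvate kinase PKM, at the end of the pathway, measured 615, 919.7 and 591 CPM in black and 412, 496 and 397 CPM in white skin (log2 fold change 0.70, SE 0.25). For GPI the log2 fold change was 0.48 (SE 0.18) and for ENO1 0.72 (SE 0.27), and HK2, with 11.8, 44.4 and 39.9 CPM in black and 11.5, 16 and 15.9 CPM in white skin, stood at 1.15 (SE 0.47). The sign of these 5 was the same in each alternative run. Whether glycolytic and respiratory genes differ in their response was not tested.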
